A study of Mus musculus with 12 samples.

Results

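ATP-binding cassette (ABC) genes were picked out of the Ribo-seq table by their symbols, Abc followed by a subfamily letter from a to g and a number. The table held 50 such symbols among 25029 usable genes, and 45 of them are described here, with Abca1, Abcb11 and Abcd3 among those left out. They were 15 ABCA, 8 ABCB, 10 ABCC, 2 ABCD, 1 ABCE, 3 ABCF and 6 ABCG genes. In Ribo-seq, nuclease digests the RNA that ribosomes do not cover, and the covered pieces, the footprints, are sequenced and counted per gene. The livers came from male C57BL/6 mice, 16 weeks old, of 2 groups. HFD mice (n = 3 libraries) had eaten a high-fat diet for 8 weeks from week 8, and LYC mice (n = 3 libraries) had eaten the same high-fat diet with lycopene, the red carotenoid of tomato, for the same time. The treatment label of the LYC mice names the high-fat diet alone, and the lycopene is known from their titles and the methods of the study. The labels also speak of pooling footprints before library construction, while the study calls the libraries of a group biological replicates. The p-values measure the spread between these libraries, which may be partly technical. The libraries are called HFD1 to HFD3 and LYC1 to LYC3 after the labels, and the same number marks no shared mouse.

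ABC proteins bind and hydrolyse ATP at a pair of nucleotide-binding domains, and most of them use that energy to move lipids, bile constituents, conjugated drugs, porphyrins, peptides or acyl-CoA across a membrane. In hepatocytes, exporters on the canalicular membrane fill the bile, others on the sinusoidal membrane send conjugates back to the blood, and further members sit in mitochondria, peroxisomes and lysosomes. ABCE and ABCF proteins have the nucleotide-binding domains without any membrane span and work on ribosomes and in translation.

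Depth differed strongly between the groups. The library totals implied by the RPKM steps were 2726202, 4405541 and 834410 reads in HFD and 394461, 311050 and 412116 reads in LYC. All 45 genes together held 2193 to 15335 reads in an HFD library and 582 to 961 reads in a LYC library. At least 1 read was found for 37 of the 45 genes, for 37 in HFD and for 32 in LYC, and 21 genes held enough reads for a test. Those 21 were 5 ABCA, 4 ABCB, 4 ABCC, 1 ABCD, 1 ABCE, 3 ABCF and 3 ABCG genes. All levels below are RPKM divided by the library's TMM factor (edgeR's trimmed-mean scaling between libraries), called scaled RPKM. The groups were compared with limma (two-sided) on log2(scaled RPKM + 1) over 5667 genes. A gene was called when its log2 fold change was above 1 or below -1 and its unadjusted p was below 0.01. Adding 1 before the log shrinks the fold changes of low genes.

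Of the 21 tested ABC genes, 1 was called lower in LYC, Abca2, and 0 were called higher, where the same rule called 6.35% of all tested genes lower and 7.09% higher. Abca2, and 0 others, had an adjusted p below 0.05, as 5.17% of all tested genes did downward and 6.56% upward. At an unadjusted limma p below 0.05, 5 were lower and 3 higher, against 15.1% of all tested genes in each direction. At the same p edgeR's quasi-likelihood test and DESeq2 each had 7 of the 21 lower and 3 higher, against 15% lower and 17.6% higher of all tested genes with edgeR and 14.5% and 17.7% with DESeq2. With the limits of a call, edgeR's quasi-likelihood test and DESeq2 on the recovered reads each called Abca2 and Abcb10 lower and Abcg5 higher. Of all tested genes edgeR called 7.06% lower and 8.77% higher, and DESeq2 6.86% and 9.09%, so these counts of called ABC genes are near or below the background. The log2 fold change was below 0 for 12 of the 21 genes and for 54.7% of all tested genes. Its median was -0.31 over the 21 genes and -0.09 over all tested genes. All LYC libraries lay below all HFD libraries for 6 of the 21 genes (19% of all tested genes) and above them for 3 (also 19%). By subfamily, fold changes were below 0 for 4 of 5 tested ABCA, 4 of 4 ABCB and 4 of 4 ABCC genes, and above 0 for 1 of 1 ABCD, 1 of 1 ABCE, 3 of 3 ABCF and 3 of 3 ABCG genes. These counts were drawn up after the values were seen and carry no test. The filter on low values needed 3 libraries at its level, which 15 of the 21 genes reached in all 6. Abca3 and Abcb6 reached it in 3 HFD and 2 LYC libraries, Abca2 and Abcb10 in 3 and 1, Abcb8 in 2 and 1, and Abcd2 in 1 and 3, so these 6 owe their place more to the group where they are higher, and counts over the tested genes support no direction. Of the 21 genes, only Abca6 and Abcf3 changed sign under some alternative setting or left-out library. In bulk liver, fewer cells of a type and less RNA per cell cannot be told apart. LYC3 was the highest LYC library for 11 of the 21 genes, and for 33.8% of all tested genes. Without LYC3, 6 of 22 tested ABC genes were called lower, against 10.4% of all genes: Abca2, Abca3, Abca8b, Abcb6, Abcc3 and Abcc6. Leaving out LYC3 lowers the LYC mean of each gene for which it is highest, so this count supports no direction. With any other library left out, 1 or 2 were called lower.

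**Figure D1:**
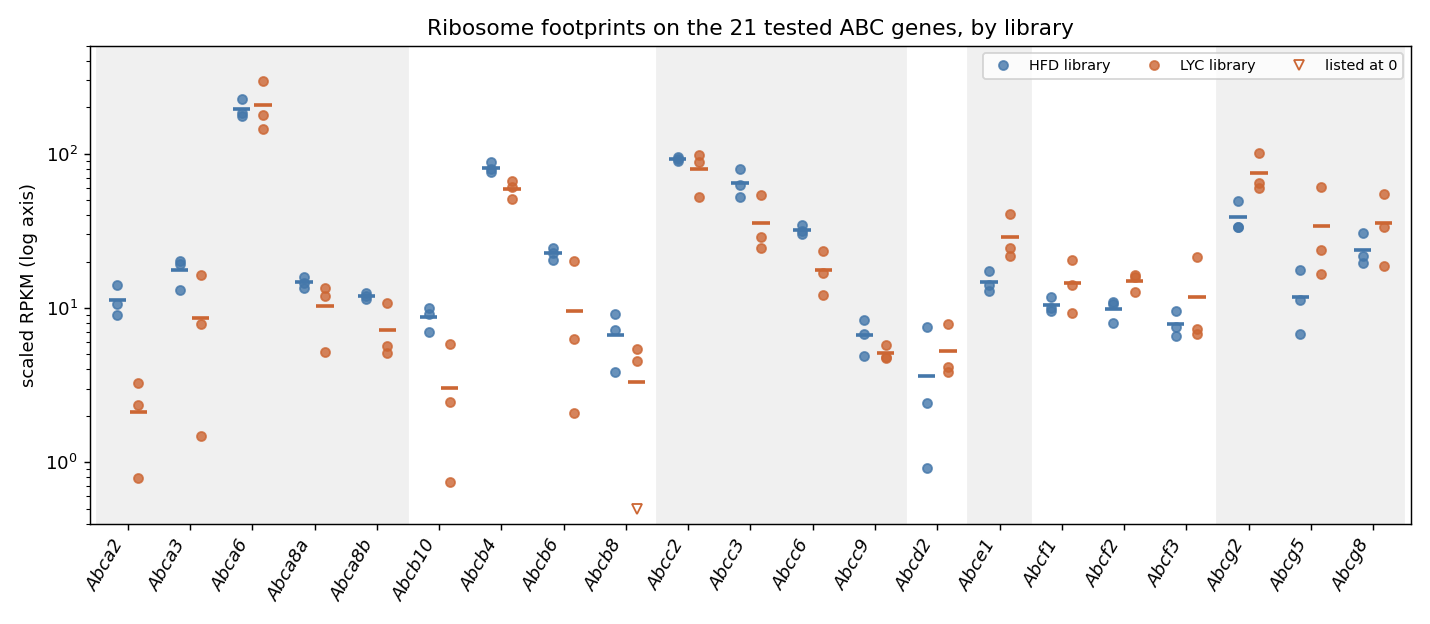
Scaled RPKM (log axis) of the 21 tested ABC genes in each of the 6 libraries, 3 HFD (blue) and 3 LYC (orange), with short bars for group means, shading by subfamily and a triangle for a library listed at 0. For Abca2, Abca8b, Abcb4, Abcb6, Abcb10 and Abcc6 every LYC point lies below every HFD point, and for Abce1, Abcf2 and Abcg2 every LYC point lies above.

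Apart from Abca6, described below with its length, the highest footprint levels per length among these 45 genes were those of bile formation and conjugate export. Abcc2, the canalicular exporter of bilirubin conjugates, held 89.6, 95.7 and 92.6 scaled RPKM in HFD and 88.1, 52.3 and 97.9 in LYC. LYC2 alone was low, the groups overlapped, and the log2 fold change was -0.27 ± 0.28 (SE; 95% interval -0.90 to 0.37), or -0.0025 without LYC2. Abcb4, the floppase that delivers phosphatidylcholine to bile, held 79.5, 88.5 and 76.2 in HFD and 60.6, 51.1 and 66.4 in LYC. All 3 LYC libraries lay below all HFD libraries, with a log2 fold change of -0.45 ± 0.23 (limma adjusted p = 0.216).

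Abcg2, a canalicular exporter of urate and of many xenobiotics, stood the other way. It held 49.6, 33.2 and 33.7 scaled RPKM in HFD and 101, 59.9 and 64.5 in LYC. These groups did not overlap, and LYC had 1.93 times the HFD mean. At 0.92 ± 0.29 on the log2 scale (95% interval 0.25 to 1.58; limma adjusted p = 0.0748, from 0.0212 to 0.253 over the alternatives) it was short of both limits of a call. In LYC its mean of 75.0 ± 22.3 lay within the spread of Abcc2 at 79.5 ± 24.0 (SD, n = 3).

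Abcg5 and Abcg8 form an obligate pair that moves cholesterol and plant sterols into bile. Their genes lie head to head on mouse chromosome 17 (GRCm38), Abcg5 on the minus strand with its start at 84683011 and Abcg8 on the plus strand with a start at 84683121. The 109 bases between these starts, at chr17:84683012-84683120, are shown because the pair is known to share its promoter. The annotated span of Abcg8 begins further upstream, at 84676302 inside Abcg5, so the head-to-head layout holds for the start of Abcg8 used here. The sequence is from RefSeq's GRCm38.p6 table, plus strand, 5′ to 3′, with the letters of TATAAA on the Abcg5 strand in capitals.

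Abcg5-Abcg8: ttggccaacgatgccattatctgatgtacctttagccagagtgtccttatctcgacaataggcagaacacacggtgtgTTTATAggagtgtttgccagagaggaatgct

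That match lies 78 bases from the start of Abcg5 and 25 bases from that of Abcg8. TATAAA, searched on both strands, is in 13.6% of all 32851 RefSeq windows of 250 bases before to 50 after a start, and in 6 of the 41 windows of 35 ABC genes found in that table. AGGTCA, the core letters of many nuclear receptor sites, searched in the same way, is in 16.3% of all windows and in 6 of those 41, of Abcb6, Abcc2, Abcc10 and Abcg2. Of the ABC windows 0 held AGGTCA repeated after 4 bases, which 0.015% of all windows hold. These are matches of letters, and no factor's binding was measured.

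Abcg5 held 11.2, 17.5 and 6.75 scaled RPKM in HFD and 23.6, 61.1 and 16.5 in LYC. LYC2 was far above the rest, and LYC3 lay just under the highest HFD library, so the groups overlapped. The log2 fold change of 1.31 ± 0.51 was the highest of the 21 genes (95% interval 0.16 to 2.46), with a limma adjusted p of 0.124, which ran from 0.0131 to 0.345 over the alternatives. edgeR's quasi-likelihood test on the reads, 326 in HFD and 79 in LYC, called it higher (log2 fold change 1.40, adjusted p = 0.0341). Without LYC2 the limma value was 0.78, and without LYC3 it was 1.66. Its partner Abcg8 held 21.6, 30.5 and 19.6 in HFD and 18.8, 55.0 and 33.3 in LYC. LYC1 lay under all HFD libraries, and the log2 fold change was 0.46 ± 0.39 (adjusted p = 0.465), from 0.08 without LYC2 to 0.84 without LYC1. LYC2 was the highest library for both genes of the pair. The exons of Abcg5 and Abcg8 share 82 bases on opposite strands, so some reads could be counted for either. Within a library the ratio of Abcg5 to Abcg8 was 0.520, 0.574 and 0.345 in HFD and 1.26, 1.11 and 0.496 in LYC. LYC1 and LYC2 were above all HFD libraries, and LYC3 was inside their range. With 3 libraries a group no exact test of this ratio could pass 0.05, so it is given as values only.

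Of the sinusoidal exporters, Abcc3, which returns glucuronides to the blood, held 52.7, 79.6 and 62.8 scaled RPKM in HFD and 28.8, 24.6 and 53.6 in LYC. LYC1 and LYC2 were under all HFD libraries, and LYC3 lay between them. Its log2 fold change was -0.91 ± 0.33 (limma adjusted p = 0.111), and it ran from -1.28 without LYC3 (adjusted p = 0.0195) to -0.70 without LYC2 (adjusted p = 0.206). The ratio of Abcc3 to Abcc2 within a library was 0.588, 0.832 and 0.678 in HFD and 0.327, 0.471 and 0.548 in LYC. These ratios did not overlap, and here too no exact test could pass 0.05. Abcc6, an exporter of hepatocytes through which cells release ATP, held 31.4, 30.3 and 34.7 in HFD and 12.1, 16.8 and 23.5 in LYC. All LYC libraries were under all HFD libraries, 1.84 times lower on average, and the log2 fold change of -0.89 ± 0.30 (limma adjusted p = 0.0866) missed both limits of a call, which it met with total library size (-1.17, adjusted p = 0.0479) and with TMM over all genes (-1.01). It ran from -1.16 without LYC3 (adjusted p = 0.0257) to -0.67 without LYC1 (adjusted p = 0.170). Abcc9, the sulfonylurea receptor of vascular potassium channels, held 8.35, 4.85 and 6.79 in HFD and 4.73, 4.79 and 5.76 in LYC. These ranges overlapped (log2 fold change -0.31 ± 0.32, from -0.54 without HFD2 to -0.17 without HFD1). Cholangiocytes also carry some of these exporters. Of 5 cholangiocyte markers, Krt19, Krt7 and Epcam had 0 reads in every LYC library. They had only 6, 16 and 10 reads in HFD, and at the HFD level 0.534, 1.69 and 0.717 reads would be expected in LYC. The list summed to 14.9 to 23.6 scaled RPKM in HFD and 3.61 to 9.22 in LYC, and most of the HFD sum was Spp1, with 19.5, 15.9 and 9.97 in HFD and 2.09, 8.45 and 5.25 in LYC. Their part in the exporter values was not tested.

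Subfamily A held the lowest fold change of the 21 genes. Abca2, a transporter of late endosomes and lysosomes tied to sphingolipid and cholesterol traffic and best known from brain, lies at chr2:25428599-25448544. It held 9.06, 10.5 and 14.1 scaled RPKM in HFD and 2.33, 0.787 and 3.26 in LYC. Every LYC library was under every HFD library, and the HFD mean was 5.29 times higher. Abca2 fell by 2.04 on the log2 scale (SE 0.40, 95% interval -2.94 to -1.13, limma adjusted p = 0.0153). The reads behind it were 787 in HFD and 18 in LYC, where 92.1 would be expected at the HFD level. The 3 HFD libraries were enough to pass the filter on low values, whose level 1 LYC library reached, and with at least 10 reads asked of each library it could not be tested. In the other 20 alternatives it was called, with log2 fold changes from -2.53 to -1.69 and adjusted p from 1.28e-06 to 0.0763.

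Abca3, which loads phospholipid into lamellar bodies of the lung, held 13, 20.3 and 19.2 scaled RPKM in HFD and 7.82, 1.48 and 16.4 in LYC. LYC3 was inside the HFD range and LYC2 far under it. Its log2 fold change was -1.33 ± 0.63 (adjusted p = 0.194), and it ran from -2.00 without LYC3 (adjusted p = 0.0477) to -0.56 without LYC2. The annotated exons of Abca3 share 914 bases with D330041H03Rik on the other strand, and the sources used here do not state whether counting used the strand. The same holds for Abcb10 with Gm45890 (444 bases), Abca8b with Gm11697 (241) and Abcc9 with 5330439B14Rik (158).

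Abca6, Abca8a and Abca8b belong to a block of related genes on chromosome 11, with Abca5 and Abca9. Abca6 had the highest scaled RPKM of the 45 genes in both groups, 183, 227 and 176 in HFD and 178, 145 and 296 in LYC. These groups overlapped and the log2 fold change was 0.02 ± 0.30. Its RPKM implied a gene length of 1441 bases, against 5239 bases implied by the second deposited table. At 5239 bases its HFD mean would be 53.7, under the HFD means of Abcc2, Abcb4 and Abcc3. Its LYC mean would be 56.7, under the LYC means of Abcc2, Abcg2 and Abcb4, so its place at the top depends on the length. Abca8a held 14.4, 13.5 and 15.9 in HFD and 13.5, 12.0 and 5.20 in LYC. LYC3 alone was clearly lower (log2 fold change -0.57 ± 0.37, or -0.22 without LYC3). Abca8b held 11.4, 12.0 and 12.6 in HFD and 5.13, 5.62 and 10.7 in LYC. Here LYC3 was the high one, the groups did not overlap, and the log2 fold change was -0.73 ± 0.34 (adjusted p = 0.185), from -1.07 without LYC3 (adjusted p = 0.0377) to -0.56 without LYC1 (adjusted p = 0.333). The ratio of Abca8a to Abca8b was steady in HFD, at 1.27, 1.12 and 1.27, and ran from 2.64 and 2.13 in LYC1 and LYC2 to 0.484 in LYC3. These neighbours are close paralogs, and reads that fit both could be split between them, so their separate values are uncertain.

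The mitochondrial and heme-linked members of subfamily B were low in LYC reads, and none of the 3 tested reached 10 reads in each library. Abcb10, of the inner mitochondrial membrane and needed for heme synthesis, held 6.93, 10.0 and 9.18 scaled RPKM in HFD and 5.88, 0.744 and 2.46 in LYC. No LYC library reached the HFD range, and the log2 fold change was -1.47 ± 0.49 (limma adjusted p = 0.0836). With 13 LYC reads in all it was called by edgeR's quasi-likelihood test (log2 fold change -1.53, adjusted p = 0.0468) and, without LYC1, by limma (-1.99, adjusted p = 0.0397). Without LYC2 its limma value was -0.98, under the fold limit. Its adjusted p ran from 0.0186 to 0.217 over the alternatives. Abcb6, a porphyrin transporter, held 20.6, 22.8 and 24.5 in HFD and 2.08, 6.32 and 20.1 in LYC. LYC1 and LYC2 were low, while LYC3 lay just under the HFD range. On the log2 scale the difference was -1.60 ± 0.60 (limma adjusted p = 0.118), and it was -2.35 without LYC3 (adjusted p = 0.0149) but -0.93 without LYC1. Abcb6 shares 2932 exon bases on the same strand with the annotated gene Gm29253, so its reads could belong to either.

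Abcb8, a transporter of the inner mitochondrial membrane, held 3.82, 7.21 and 9.10 in HFD and 0, 5.45 and 4.51 in LYC. A library without reads and 10 LYC reads in all left a wide interval (log2 fold change -1.16, 95% interval -2.71 to 0.39). Without LYC1, the library at 0, the value was -0.31.

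Peroxisomal transporters make up most of subfamily D and carry very-long-chain acyl-CoA into the organelle for oxidation. Abcd2, such a transporter, held 0.918, 7.48 and 2.43 in HFD and 3.86, 7.82 and 4.16 in LYC. HFD2 was high and HFD1 low among the HFD libraries, the groups overlapped, and the log2 fold change was 0.66 ± 0.54 (adjusted p = 0.443). It was 0.15 without HFD1, and without HFD2 the gene was not tested.

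**Figure D2:**
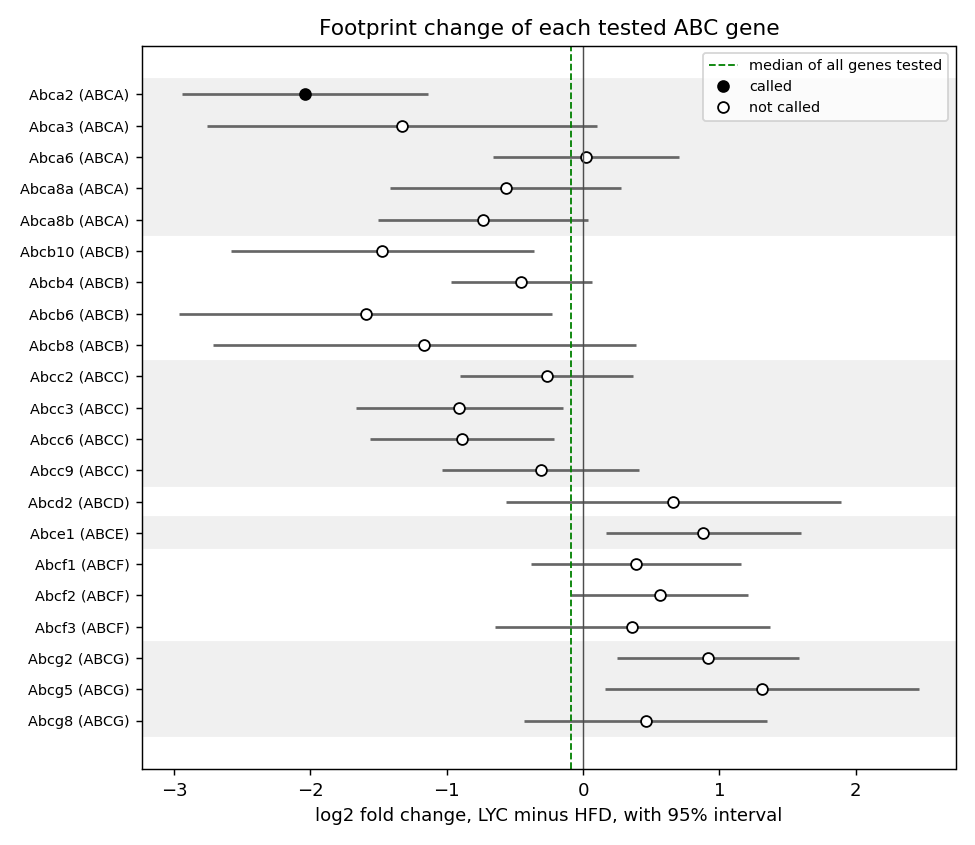
Log2 fold change (LYC minus HFD) of each tested ABC gene with its 95% interval from limma, ordered by subfamily, filled where the gene was called, with the median of all 5667 tested genes as a dashed line. Abca2 at -2.04 is the filled point, and every gene of ABCE, ABCF and ABCG lies above 0.

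The tested ABCE and ABCF genes, whose proteins lack a membrane span, had fold changes above 0 in the limma test, as had those of ABCD and ABCG. Abcf3 was the exception once LYC2 was left out. Abce1 splits ribosomes after termination so that they can start again. It held 14, 12.8 and 17.4 scaled RPKM in HFD and 40.7, 24.4 and 21.6 in LYC. All LYC libraries lay above all HFD libraries, and their mean was 1.96 times the HFD mean. Its log2 fold change of 0.88 ± 0.32 (95% interval 0.17 to 1.60, limma adjusted p = 0.104) missed both limits of a call. Its adjusted p ran from 0.0211 to 0.295 over the alternatives. Abcf2, a cytosolic ABC protein, held 10.6, 8.03 and 10.9 in HFD and 16.0, 12.7 and 16.3 in LYC. These groups did not overlap either, with a log2 fold change of 0.56 ± 0.29 (adjusted p = 0.224), or 0.37 without HFD2. Abcf1, which binds an initiation factor, held 9.59, 11.7 and 9.97 in HFD and 14.1, 20.3 and 9.26 in LYC. LYC3 was the lowest of the 6 and the groups overlapped (log2 fold change 0.39 ± 0.34, from 0.12 without LYC2 to 0.62 without LYC3). Abcf3 held 7.48, 6.55 and 9.55 in HFD and 6.74, 21.4 and 7.26 in LYC. Only LYC2 was high, and without it the log2 fold change went from 0.36 ± 0.44 to -0.14.

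As sums over their genes the subfamilies were compared without a test. ABCG held 77.0 ± 13.6 scaled RPKM in HFD and 148 ± 29.9 in LYC (SD, n = 3), with 61.2 to 85.3 in the HFD and 118 to 178 in the LYC libraries. ABCF held 28.1 ± 2.11 and 41.4 ± 11.6. ABCB held 121 ± 10.0 in HFD and 77.0 ± 18.1 in LYC, and ABCC 200 ± 14.8 and 138 ± 41.6. In ABCB all LYC sums, up to 97.6, were under all HFD sums, from 112, and in ABCC the highest LYC sum of 181 was just under the lowest HFD sum of 184. ABCA held 255 ± 28.1 and 237 ± 89.0, of which Abca6 alone was 76.5% in HFD and 87.0% in LYC. ABCD held 6.32 ± 3.01 and 8.43 ± 4.90. The spread was wider in LYC: the SD was a larger share of the mean in LYC than in HFD for 18 of the 21 tested genes, with a median of 0.433 against 0.183. The share among all tested genes was not counted, so this is no trait of ABC genes. The LYC libraries also held fewer reads, and the part of depth in this spread was not tested.

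Gene length differed between the subfamilies and went with the fold change in the whole table. Among all tested genes, the median log2 fold change was 0.50 in the shortest and -0.31 in the longest of 10 equal bins of length, and the rate of higher calls ran from 25.9% in the shortest to 0.529% in the longest. The tested ABC genes had a median length of 4075 bases, against 2983 for all tested genes, with 5173.5 in ABCA to ABCD and 3031 in ABCE to ABCG. With each library's trend on length removed, the log2 fold changes had a median of -0.05 over the 21 genes and 0.02 over all genes. Abca6 then changed sign, and none of the other tested ABC genes did, but several lower values shrank. Abcc2 went from -0.27 to -0.0079, Abcc9 from -0.31 to -0.0093, Abcb4 from -0.45 to -0.25 and Abca8a from -0.57 to -0.30. Abca2 (-1.73, limma adjusted p = 0.0240) still met the call, and Abce1 met it as well (1.07, adjusted p = 0.0624).

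**Figure D3:**
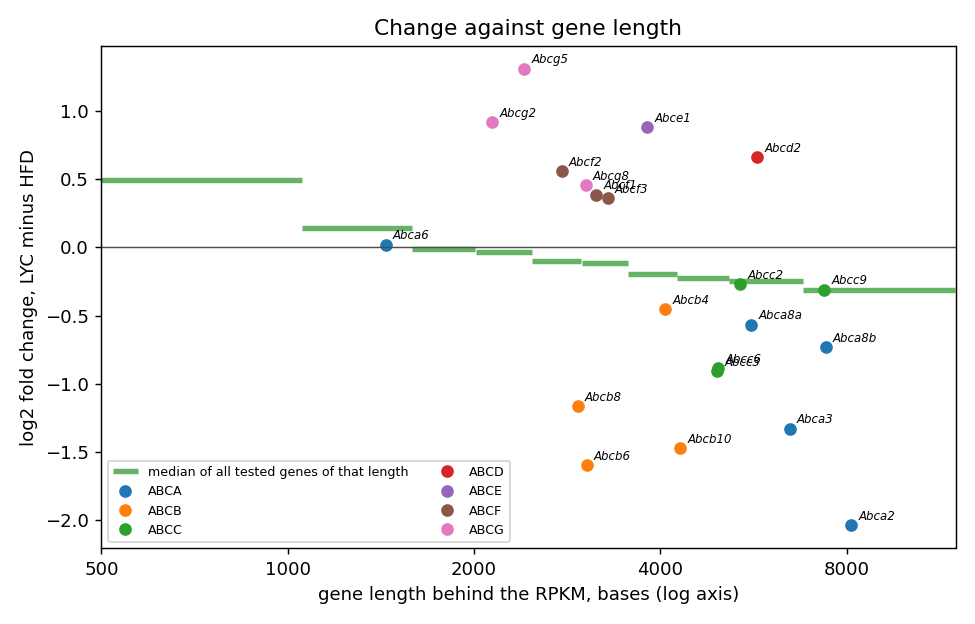
Log2 fold change (LYC minus HFD) of the 21 tested ABC genes against the gene length behind the RPKM (log axis, bases), coloured by subfamily, with green bars for the median of all tested genes in each of 10 bins of length. The bars go from 0.50 to -0.31, and Abca2, Abcb6, Abcb10, Abca3 and Abcb8 lie more than 1 under their bars, while Abcg5 and Abce1 lie more than 1 above.

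A further 16 ABC genes had reads but too few for a test, from 2 to 132 over the 6 libraries. Among transporters of cholesterol and phospholipid, Abcg1 had 123 reads in HFD and 9 in LYC, where 11.6 would be expected at the HFD level, and Abca7 had 81 and 3, where 11 would be expected. Abca7 therefore held 0.272 of its expected reads (exact 95% Poisson interval 0.0560 to 0.794, for counting error only), and its LYC libraries at 0.955, 0 and 0.40 scaled RPKM were all under its HFD libraries at 1.43, 1.08 and 2.46. Abcg3, a rodent relative of Abcg2, had 17 reads in HFD and 5 in LYC against 1.31 expected (ratio 3.82, interval 1.24 to 8.90). Its LYC libraries at 2.09, 1.06 and 1.75 were all above its HFD libraries at 0.579, 0.710 and 0. Both intervals take the expected number as exact. Abcc5 aside, only Abcc10 (0 to 0.752) of the other untested genes with reads had an interval without 1. That of Abcg1 was 0.354 to 1.47 and that of Abca9 0.119 to 1.68. Of the 16 genes, 3 had all LYC libraries below all HFD libraries (Abca7, Abcc5 and Abcc10) and 1 above (Abcg3). Abcc5 and Abcc10 were at 0 in every LYC library. The share among all genes with too few reads for a test was not counted, so these counts support no direction. Abcd4, which helps cobalamin leave the lysosome, had 57 and 9 reads against 6.89 expected, and all 9 were in LYC3. Of the other ABCA genes, Abca5 had 72 and 9 reads (8.00 expected), Abca9 54 and 3 (5.22) and Abca17 48 and 4 (5.34). The P-glycoprotein genes Abcb1a and Abcb1b are near-identical copies, so reads could be split between them. Abcb1a had 51 and 7 reads, where 3.86 would be expected. Abcb1b had 22 and 0 reads, with 21 of them in HFD2 and 1.38 expected in LYC. The lysosomal peptide transporter Abcb9 had 24 and 2 (2.06 expected), and the drug and anion exporters Abcc1 and Abcc4 had 23 and 1 (2.56) and 16 and 1 (1.58). Abcb1a, Abcb1b, Abcb9 and Abcc10 share 51 to 553 exon bases with a gene on the other strand.

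Abcc10, a broad drug exporter, had 32 reads in HFD and 0 in LYC, where 4.91 would be expected. Its HFD libraries held 0.386, 0.592 and 1.71 scaled RPKM, so the HFD level rests mostly on HFD3, with 8 of the 32 reads, and no fold is given. Abcc5, an exporter of organic anions, held 1.19, 2.14 and 1.98 scaled RPKM in HFD and was listed at 0 in all LYC libraries. Its reads are known only up to a common factor, since shorter gene lengths explain its values as well, so no expected number is given. They could be 5 times fewer than at the fitted length. Without the filter on low genes it was called lower, a call that supports no direction with reads this uncertain. Abca4, of the retina, had 2 and 0 reads, and Abca14 4 and 0. In all, 5 of the 16 genes had no LYC read.

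The remaining 8 genes had 0 reads in all 6 libraries, which allows up to 3 reads in either group: Abca12, Abca13, Abca15, Abca16, Abcb5, Abcc8, Abcc12 and Abcg4. Several are known from other organs, such as Abca12 from skin, Abcc8 from pancreatic islets and Abcg4 from brain. At these depths their translation in liver was not detectable.

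**Figure D4:**
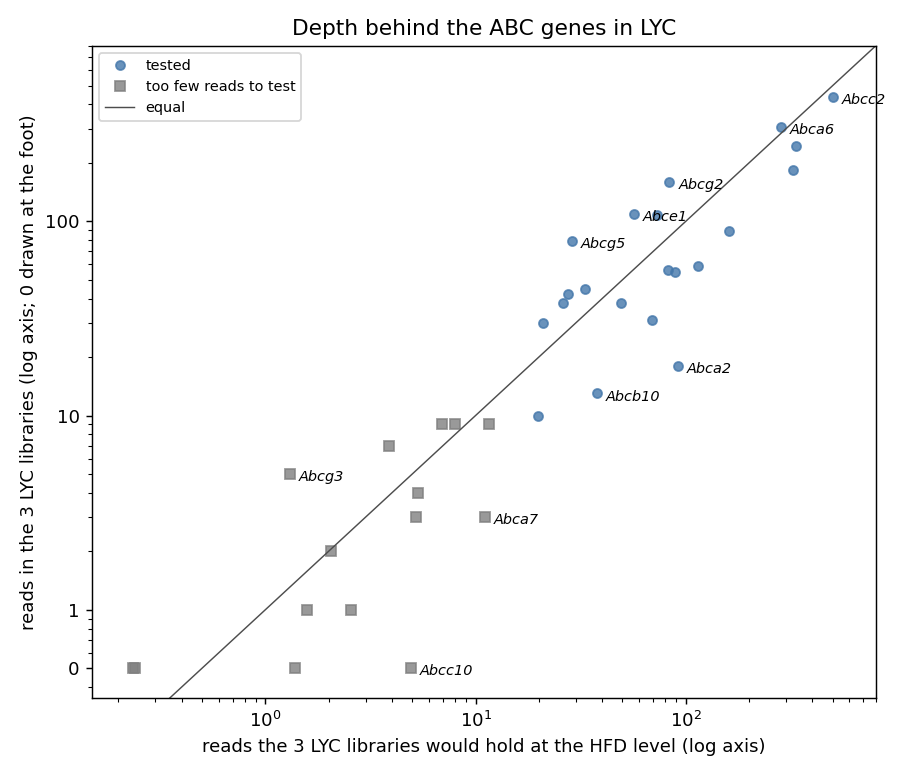
Reads in the 3 LYC libraries against the reads they would hold at the HFD level (both log axes, 0 drawn at the foot), for 36 of the 37 ABC genes with reads, circles for tested genes and squares for genes with too few reads; Abcc5 is left out because its reads are known only up to a factor. Abca2 (18 of 92.1) and Abcb10 (13 of 37.7) lie under the line of equality and Abcg5 (79 of 28.7) above it.

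Genes that work with the ABC family were counted from lists. Among ABC genes under other symbols only Tap1, the peptide transporter of antigen presentation, could be tested, and it fell by 1.43 on the log2 scale (limma adjusted p = 0.0586), from 13.7, 14.2 and 17.5 scaled RPKM in HFD to 3.31, 3.35 and 10.2 in LYC. Its call was lost without any of HFD1, HFD2, HFD3, LYC1 or LYC2, with log2 fold changes from -1.52 to -1.21. Of 11 transcription factors known to act on ABC genes in liver, 2 were called lower and 1 higher, where 6.35% of all tested genes were called lower and 7.09% higher. The lower ones were the oxysterol receptors (LXR) Nr1h2 and Nr1h3, which drive sterol exporters such as Abcg5 and Abcg8. Nr1h3 held 35, 40.1 and 38.9 in HFD and 11, 7.39 and 19.9 in LYC, and fell by 1.61 (limma adjusted p = 0.0233). Nr1h3 and Tap1 each reached the level of the filter in 3 HFD libraries and 1 LYC library. Both thus owe their place more to HFD, and with at least 10 reads asked of each library neither was tested. Nr1h2 held 8.57, 13.9 and 22.0 in HFD and 0, 1.59 and 6.60 in LYC, with a log2 fold change of -2.46 (limma adjusted p = 0.0507). With 0, 1 and 5 LYC reads it passed the filter on low values through HFD alone, as 5.19% of all tested genes did, so it had to come out lower and its call supports nothing. The call of Nr1h3 held without any 1 library, and that of Nr1h2 was lost without LYC1 (-1.75) or LYC2 (-2.43), while without HFD2 or HFD3 it did not pass the filter and was not tested. The Nr1h2 call was also lost with a pseudocount of 0.1 and with no filter on low genes. The higher one was Nr1h4, the bile acid receptor (FXR), a known driver of bile exporters. It held 20.3, 28.6 and 34.2 in HFD and 91.4, 52.0 and 67.2 in LYC, and rose by 1.30 (limma adjusted p = 0.0286), a call lost without HFD1 (1.08) or LYC1 (1.1). All LYC libraries lay below all HFD libraries for Nr1h2 and Nr1h3 and above them for Nr1h4.

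Of 21 tested partners of ABC proteins, such as peroxins, iron-sulphur and heme proteins, canalicular flippase subunits and recycling factors, 0 were called by limma, with 3 higher and 2 lower at an unadjusted p below 0.05, against 15.1% of all tested genes in each direction. edgeR's quasi-likelihood test and DESeq2 each called 1 of the 21, Atp8b1, lower (limma log2 fold change -0.91, adjusted p = 0.0833). Of all tested genes they called 7.06% and 6.86% lower, so this count is below the background. Hepatocyte markers were abundant in every library, with a sum of 33361 to 37017 scaled RPKM in HFD and 26331 to 38827 in LYC. Of 5 hepatocyte markers tested, 1 was called, Cps1, higher (log2 fold change 1.08, limma adjusted p = 0.0532), a call lost without any of the libraries but LYC3, with values from 0.90 to 1.11, and also with total library size (0.78), with TMM over all genes (0.94) and with no filter on low genes. Kupffer cell markers (5 tested) summed to 109 to 121 in HFD and 123 to 162 in LYC, with 0 called by limma and 0 at an unadjusted p below 0.05. Vsig4 was called higher by both edgeR and DESeq2, which called 8.77% and 9.09% of all tested genes higher. It reached the level of the filter in 1 HFD library and 2 LYC libraries, so it owes its place more to LYC. Its LYC3 value of 7.40 scaled RPKM was inside its HFD range. Endothelial markers (4 tested) summed to 50.3 to 67.8 in HFD and 11.9 to 112 in LYC, with 0 called by limma, edgeR or DESeq2. At an unadjusted limma p below 0.05, 1 was lower, Pecam1. It passed the filter on low values through HFD alone, so it had to come out lower and this supports nothing. Stellate markers (3 tested) summed to 76.6 to 143 and 99.6 to 119, with 0 called by any of these tools and 0 at an unadjusted p below 0.05. Of the blood markers 1, Hbb-bs, could be tested and was not called by any of these tools (log2 fold change 0.70, limma adjusted p = 0.158), though it was 1 of 1 higher at an unadjusted p below 0.05. The part of these cells in the ABC values was not tested. The share of all gene reads that fell on small non-coding RNA was 2.57% to 4.11% in the HFD and 8.68% to 13.3% in the LYC libraries.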

How the data were processed

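The authors trimmed and aligned the Ribo-seq reads and deposited RPKM (reads per kilobase of gene, relative to the library total) for each gene and library. Cutadapt and Bowtie2 and the mouse build mm10 are named in the submitters' processing notes, and the study's methods also name STAR and FANSE2. Which annotation was used and whether strand was counted is not given in the sources used here. The authors also deposited a table with read counts and RPKM of RNA side by side, whose columns correlated with Ribo-seq libraries of the same diet (over 16828 genes, r = 0.915 to 0.919 with the same-numbered library for LYC, and for HFD 0.890 to 0.918 with the same-numbered and 0.934 to 0.943 with another). Whether it holds mRNA was not settled, and it was used only for gene lengths.

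RPKM values were turned back into whole reads, since 1 read is worth a fixed step that depends on gene length and library total. With those lengths, 71.9% to 72.4% of the values came out whole, within 0.02 reads. For 4620 of the 15749 genes above 0, among them 11 of the 37 ABC genes with reads, a length was fitted that made all 6 values whole. Of 25033 rows, 4 that share a name were left out. Reads served for the filter (filterByExpr), for TMM factors (0.801 to 1.26) and for the count tests. Intervals and floors of reads cover counting error only.

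limma 3.58.1 (lmFit, eBayes with trend, two-sided, R 4.3.3) tested log2(RPKM / TMM factor + 1) for the 3 HFD and 3 LYC libraries, with Benjamini-Hochberg adjustment over all 5667 genes. The limits of a call, an absolute log2 fold change above 1 and p below 0.01, are those the study applied to its Ribo-seq results. Its methods state p below 0.001, which was run as an alternative. Alternatives were edgeR 4.0.16, DESeq2 1.42.0, other scalings, pseudocounts, filters and thresholds, removal of the trend on length, a replicate block and leaving out each library. TMM factors over all genes were added after seeing the data. The scripts were tested on simulated data. Some ABC genes are not reported here. Named were every tested ABC gene with its values, every untested one with its reads, and the called genes of the other lists. Genes of those lists were 3 ABC genes under other symbols, 11 factors, 25 partners and markers of 6 cell types. The ABC genes and the lists were chosen with earlier results of these data known. Promoter sequences are from RefSeq (GRCm38.p6), and overlaps of exons from GENCODE M21.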

Additional observations from a re-analysis of the deposited data

How the results depend on the processing

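Of the 21 tested ABC genes, 19 kept their direction in every alternative that tested them and 2 did not. The number called lower, 1 with limma (Abca2), became 5 when libraries were scaled by their totals and not by TMM (Abcb6, Abcb10, Abcc3 and Abcc6 added), 2 of 37 with no filter on low genes (Abcc5 added, 4.51% of all genes), 0 among the 14 genes with at least 10 reads in each library (3.18%), where Abca2 was not among those tested, 2 with edgeR's quasi-likelihood test (7.06%) and with DESeq2 (6.86%, Abcb10 added), 3 with edgeR's exact test (8.36%, Abcb6 and Abcb10 added), 2 with TMM over all genes (8.15%, Abcc6 added) and was 1 with the replicate block (5.98%). It ran from 1 to 6 when a library was left out: 2 without LYC1 (Abcb10 added, 6.29% of all genes), 6 without LYC3 (10.4%) and 1 without HFD1 (3.68%), HFD2 (4.10%), HFD3 (3.07%) or LYC2 (6.77%). With total library size, 4.13% of all genes were called higher and 11.5% lower, against 7.09% and 6.35%, and the median of all genes moved from -0.09 to -0.36, so that the 5 lower ABC genes stand against that shift. The number called higher, 0 with limma, became 1 with at least 10 reads in each library (13.9% of all genes), with edgeR's quasi-likelihood (8.77%) and exact tests (9.23%), with DESeq2 (9.09%), with the replicate block (7.04%), Abcg5 each time, and with the length trend removed (7.22%, Abce1). Against those shares of all genes, 1 of 14 or 1 of 21 is below the background. At an unadjusted p below 0.001 the calls of Tap1, Nr1h2, Nr1h3, Nr1h4 and Cps1 were all lost. With no filter on low genes those of Tap1, Nr1h2 and Cps1 were lost. Same-numbered libraries are not paired: the correlations of their deviations were 0.106, 0.0257 and -0.0037, and LYC3 did not correlate best with HFD3. Abca6 reversed to -0.27 with total library size, -0.0037 without small non-coding RNA, -0.045 with the length trend removed and -0.11 with TMM over all genes, which moved the median of all genes to -0.21, and ran from -0.32 to 0.24 with a library left out. Abcf3 ran from -0.14 to 0.63 in the same way. Summed RPKM as deposited was 286 for ABCA, 136 for ABCB, 223 for ABCC and 31.2 for ABCF in HFD, where scaled RPKM gave 255, 121, 200 and 28.1, which differ by construction, since each library is divided by its TMM factor. The cause of the other differences was not tested. Depth limits the LYC side: 7 of the 21 genes had fewer than 10 reads in at least 1 library.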
